A study of Mus musculus with 7 samples.

Results

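Small proline-rich and cornified envelope genes were measured in nasal tissue of female BALB/c mice that had inhaled diesel exhaust particles (DEPs). The set was chosen by gene name, with earlier results of these data known. It holds *Sprr1a*, *Sprr1b*, *Sprr2d*, *Sprr2e*, *Sprr2f*, *Sprr2h*, *Sprr3*, *Lor*, *Ivl* and *Tgm3*, which are 10 of the 32095 gene names on the array. The RefSeq transcript accession of each probe assigned 12 of the 39429 probes to them, and *Ivl* and *Tgm3* have more than 1 probe. A probe was tested if at least 3 of the 7 arrays showed it well above background in the DEP or the control channel. That kept 11 of the 12 probes and all 10 genes.

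Mice aged 6 weeks were placed in a closed chamber and breathed DEPs at 100 µg/m3 from a nebulizer, 1 hour a day on 5 days a week, for 4 or 8 weeks. Control mice of the same sex, strain and age received nebulized saline, as the methods state for the 4-week exposure. The tissue included the nasal septum and turbinates. Per the methods, jaw and nose were taken off first, and the piece between the incisive papilla and the second molar was kept. On each Agilent array the RNA of DEP tissue carried Cy5 and that of control tissue Cy3, with 4 arrays at 4 weeks and 3 at 8 weeks. The labels call the arrays biological replicates, but how many of the 32 mice went onto each array is not given, so p-values measure the spread between these arrays. No array swaps the dyes, so an effect of the dye cannot be told apart from one of exposure. Slide 1 holds the 4-week and slide 2 the 8-week arrays, so a difference between times cannot be told apart from one between slides.

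The cornified envelope is the protein shell that replaces the plasma membrane of a dying keratinocyte in stratified squamous epithelium. Loricrin (*Lor*), involucrin (*Ivl*) and the small proline-rich proteins are its building blocks, and transglutaminases such as *Tgm3* join them by covalent bonds between glutamine and lysine side chains. In the nose such epithelium lines the vestibule and gives way to respiratory and olfactory epithelium further back. Whether the tissue collected held any vestibule is not stated. Small proline-rich genes are also known to be switched on where epithelium is stressed or injured.

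All members but *Tgm3*, on chromosome 2, lie on chromosome 3 in the epidermal differentiation complex, a cluster of genes for the outer layers of stratified epithelium. The promoters of the *Sprr2* genes are printed because these neighbours are close copies that did not move together, and those of *Sprr1a* and *Sprr1b* because the pair parted at 8 weeks. Each run covers the 200 bases before the start site in RefSeq's GRCm38.p6 annotation, 5′ to 3′ on the gene's own strand, and capitals mark the TATA box TATAAA, the AP-1 site TGANTCA, the octamer ATGCAAAT on the other strand, and the GC-rich motif GGGNGGG.
Sprr2d: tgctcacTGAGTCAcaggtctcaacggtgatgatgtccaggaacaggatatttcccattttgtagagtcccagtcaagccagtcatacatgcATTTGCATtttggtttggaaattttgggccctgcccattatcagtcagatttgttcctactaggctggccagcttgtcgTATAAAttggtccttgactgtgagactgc
Sprr2e: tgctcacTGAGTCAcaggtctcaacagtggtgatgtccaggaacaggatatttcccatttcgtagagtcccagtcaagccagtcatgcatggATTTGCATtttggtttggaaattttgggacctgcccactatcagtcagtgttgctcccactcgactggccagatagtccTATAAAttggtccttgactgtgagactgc
Sprr2f: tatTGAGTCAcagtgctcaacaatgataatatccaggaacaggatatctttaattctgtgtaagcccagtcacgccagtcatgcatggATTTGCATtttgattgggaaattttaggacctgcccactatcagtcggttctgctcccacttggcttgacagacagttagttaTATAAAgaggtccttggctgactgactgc
Sprr2h: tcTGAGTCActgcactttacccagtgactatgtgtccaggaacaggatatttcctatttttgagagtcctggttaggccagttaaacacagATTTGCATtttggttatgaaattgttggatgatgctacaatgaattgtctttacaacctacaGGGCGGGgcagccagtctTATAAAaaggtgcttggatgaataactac
Sprr1a: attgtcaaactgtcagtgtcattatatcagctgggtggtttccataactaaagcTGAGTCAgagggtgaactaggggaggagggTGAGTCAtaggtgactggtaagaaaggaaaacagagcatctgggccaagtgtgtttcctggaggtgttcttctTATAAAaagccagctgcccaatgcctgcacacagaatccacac
Sprr1b: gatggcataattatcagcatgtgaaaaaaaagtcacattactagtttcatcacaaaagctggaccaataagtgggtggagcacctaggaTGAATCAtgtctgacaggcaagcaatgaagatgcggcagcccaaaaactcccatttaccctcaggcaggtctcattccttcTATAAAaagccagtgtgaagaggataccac

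These promoters lie at chr3:92338940-92339139 (*Sprr2d*), chr3:92351943-92352142 (*Sprr2e*), chr3:92364987-92365186 (*Sprr2f*) and chr3:92385485-92385684 (*Sprr2h*) on the forward strand, and at chr3:92485882-92486081 (*Sprr1a*) and chr3:92438780-92438979 (*Sprr1b*) on the reverse strand. Over the 250 bases before each start site, the *Sprr2d* and *Sprr2e* promoters were identical at 89.3% of aligned positions. *Sprr2f* was identical to *Sprr2e* at 73.9% and to *Sprr2d* at 71.1%, and *Sprr2h* shared 60.1% with *Sprr2f*, 65% with *Sprr2d* and 66% with *Sprr2e*. The *Sprr1a* and *Sprr1b* promoters were identical at 55.9% of aligned positions. By the same alignment *Sprr1b* and *Sprr3* shared 57.8%, *Sprr1b* and *Sprr2h* 52.9%, and *Lor* and *Tgm3* 50.5%, so 55.9% does not set that pair apart. TATAAA stood within the 250 bases before the start site of all 10 members and of 12.4% of all 32851 promoters in the table, both strands searched. TGANTCA stood in 8 of the 10, all but *Sprr3* and *Tgm3*, and in 6.75% of all promoters. The octamer, chosen after the sequences were seen, stood in the 4 *Sprr2* members alone among the 10 and in 1.6% of all promoters, and GGGNGGG stood in *Sprr2h* alone and in 44.8% of all. None of these matches separates *Sprr2f* from *Sprr2d* and *Sprr2e*.

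Values below are log2 ratios of DEP over control tissue, or the normalized signal of 1 channel in arbitrary units. Every signal includes a constant of 50 added in background correction, so a signal near 50 is close to none and the ratios of dim probes are drawn towards 0. Levels are not compared between genes, because each probe binds with its own strength. A fit by limma over all 25162 tested probes gave each p-value, adjusted by the Benjamini-Hochberg method, and a gene was called at an adjusted p of at most 0.05, with the value of its brightest tested probe. Fewer cells of a type and less RNA per cell cannot be told apart in such bulk tissue.

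After 4 weeks of DEPs all 10 genes were called, 8 lower and 2 higher than control. The lower genes were *Sprr2d*, *Sprr1b*, *Sprr2h*, *Sprr2e*, *Lor*, *Ivl*, *Sprr1a* and *Sprr3*, and the higher genes were *Tgm3* and *Sprr2f*. Among all 20664 genes tested, 38.1% were called at 4 weeks, 16.5% lower and 21.6% higher. The median log2 ratio was -0.73 over the members and 0.00 over all genes. At the study's thresholds, an unadjusted p of at most 0.01 and a change of at least 2-fold, 3 members were lower (*Sprr2d*, *Sprr1b* and *Sprr2h*) and none higher, where 0.368% of all genes were lower. Over the alternatives run, the adjusted p reached 0.223 for *Sprr1a*, 0.0929 for *Sprr3*, 0.0517 for *Ivl* and 0.337 for *Tgm3*, while the other 6 members stayed called.

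After 8 weeks 8 members were called, 6 lower and 2 higher. *Sprr2d*, *Sprr2f*, *Sprr2h*, *Sprr2e*, *Sprr1a* and *Sprr3* were lower, and *Tgm3* and *Sprr1b* higher. The share of all genes called was 37.3%, with 17% lower and 20.4% higher. The median log2 ratio was -0.31 over the members and 0.01 over all genes. *Sprr2d* and *Sprr2f* passed the study's thresholds, both lower, against 0.847% of all genes. Tested directly, the ratio differed between the times for 8 members, 7 of them higher at 8 than at 4 weeks and *Sprr2f* lower, and 30.9% of all genes differed, 14.9% higher and 16.1% lower. Each of the 8 calls at 8 weeks was lost under at least 1 alternative, with a highest adjusted p of 0.057 for *Sprr2d*, 0.0578 for *Tgm3*, 0.0599 for *Sprr2f*, 0.0869 for *Sprr2h*, 0.11 for *Sprr2e* and 0.154 for *Sprr1a*.

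**Figure D1:**
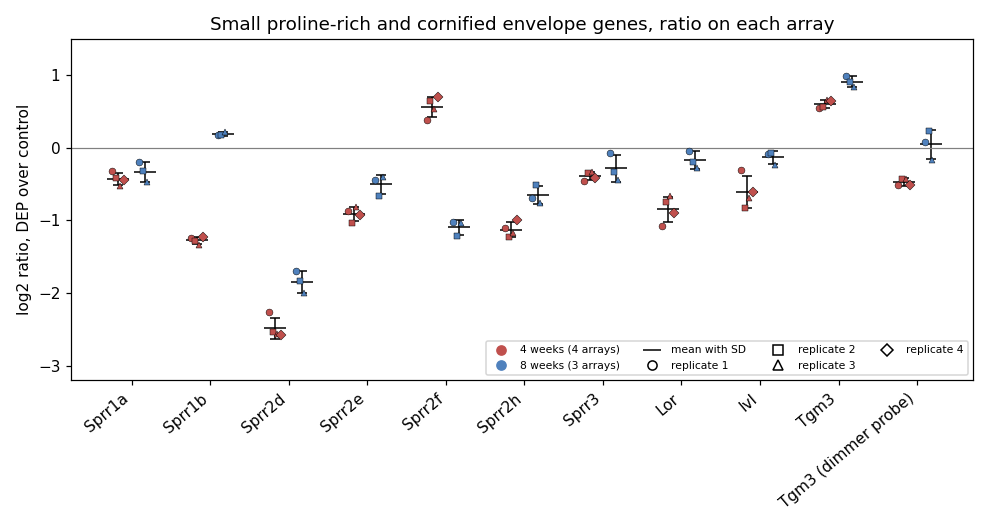
Log2 ratio of DEP over control (y axis) on each array for the 11 tested probes of the 10 genes, 4 weeks in red and 8 weeks in blue, with mean and SD as black bars and the replicate number as symbol. *Sprr2d* lies lowest at both times, *Sprr2f* crosses from above to below 0, *Sprr1b* crosses the other way, and the probes of *Tgm3* take opposite signs at 4 weeks.

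*Sprr2d* codes for a small proline-rich protein that serves as a cross-bridge between larger envelope proteins. Its signal in DEP tissue at 4 weeks was 408, 331, 363 and 312 on replicates 1 to 4, against 1960, 1924, 2146 and 1859 in control tissue. No DEP channel came near a control channel. The log2 ratios were -2.26, -2.54, -2.56 and -2.57, with a mean of -2.49 ± 0.15 (SD, n = 4 arrays), which is 5.6-fold lower in DEP tissue (limma, adjusted p = 1.17e-06). At 8 weeks the DEP channel read 587, 546 and 466 and the control channel 1903, 1941 and 1863. The groups again did not overlap, and the DEP signal lay above that of the 4-week arrays. This gave a log2 ratio of -1.84 ± 0.15 (SD, n = 3 arrays), or 3.59-fold lower (limma, adjusted p = 4.59e-06). The difference between the times was 0.64 (SE 0.11, adjusted p = 0.00442), so the deficit was smaller at 8 weeks, although this call was lost when the background model was fitted on all spots (0.40, adjusted p = 0.269 there, 0.00178 to 0.269 over the alternatives).

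*Sprr2f*, the next gene but one along the chromosome, moved the opposite way at 4 weeks. DEP tissue gave 561, 618, 597 and 664 and control tissue 432, 397, 412 and 409. Every DEP channel was above every control channel. The mean log2 ratio was 0.56 ± 0.14 (SD, n = 4 arrays), or 1.48-fold higher (limma, adjusted p = 0.000535). At 8 weeks DEP tissue gave 166, 152 and 176 and control tissue 338, 352 and 361, which again left a gap between the groups, now with DEP below. The resulting log2 ratio was -1.09 ± 0.10 (SD, n = 3 arrays), or 2.13-fold lower (limma, adjusted p = 3.15e-05). The ratio fell by 1.66 on the log2 scale from 4 to 8 weeks (SE 0.10, adjusted p = 4.16e-05). With the processed signals that difference was -2.34.

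*Sprr2e* and *Sprr2h* were dimmer and were lower in DEP tissue at both times. The *Sprr2h* signal at 4 weeks was 78.9, 82.6, 92.1 and 102 in DEP tissue and 170, 194, 208 and 204 in control tissue. Its log2 ratio was -1.13 ± 0.10 (SD, n = 4 arrays; limma, adjusted p = 1.15e-05) at 4 weeks and -0.65 ± 0.12 (SD, n = 3 arrays; adjusted p = 0.000298) at 8 weeks. At 8 weeks its signal was 84.4, 96.9 and 80.9 in DEP tissue and 136, 139 and 136 in control tissue. Neither time showed overlap of the groups, and the DEP signal covered much the same range at both times while the control signal was lower at 8 weeks. The size of the *Sprr2h* change depended on the background correction, and with the processed signals of the scanner software its log2 ratio was -2.50 at 4 and -1.64 at 8 weeks. *Sprr2e* was not well above background in DEP tissue on any array, so the size of its change is uncertain. By a bound computed from the normalized values, control tissue was 1.78-fold higher at 4 weeks, where 2 of 4 control channels were well above background (limma, adjusted p = 3.81e-05). At 8 weeks control tissue was 1.42-fold higher, with 3 of 3 control channels well above background (limma, adjusted p = 0.0012). That call was lost with the background model fitted on all spots (adjusted p = 0.0528). The bound sets the mean control signal against, on each array, the higher of the dim probe's own signal and the lowest signal among probes well above background, in normalized log2 values. At 8 weeks every *Sprr2e* DEP signal lay above that lowest signal, so the bound equals the measured ratio. Over the alternatives the *Sprr2e* log2 ratio ran from -2.75 to -0.66 at 4 weeks and from -1.96 to -0.43 at 8 weeks. The first value of each range came with the processed signals, and the last is a smaller change than the bound. The ratio was higher at 8 than at 4 weeks by 0.48 for *Sprr2h* (SE 0.09, adjusted p = 0.00681) and by 0.41 for *Sprr2e* (SE 0.09, adjusted p = 0.0141), and neither call held with the background model fitted on all spots (adjusted p of 0.519 and 0.417). The *Sprr2e* call was also lost with the processed signals (0.79, adjusted p = 0.0566).

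*Sprr1a* and *Sprr1b*, whose small proteins are known as cornifins, parted at 8 weeks. The *Sprr1b* signal at 4 weeks was 129, 133, 140 and 158 in DEP tissue and 305, 322, 354 and 370 in control tissue, with no overlap. On average the log2 ratio was -1.27 ± 0.05 (SD, n = 4 arrays), or 2.41-fold lower (limma, adjusted p = 2.31e-06). At 8 weeks its DEP signal was 197, 200 and 198 and its control signal 174, 176 and 169, so that DEP tissue was the higher on every array. The log2 ratio was 0.19 ± 0.03 (SD, n = 3 arrays), or 1.14-fold higher (limma, adjusted p = 0.018). That small rise was not called without 8-week replicate 2 (0.20, adjusted p = 0.0798) or 3 (0.18, adjusted p = 0.0687), with median centring (0.05, adjusted p = 0.479), or with the background model fitted on all spots (0.18, adjusted p = 0.509). Over all alternatives its adjusted p ran from 0.00474 to 0.509. The change of the ratio from 4 to 8 weeks, by 1.47 (SE 0.06, adjusted p = 1.1e-05), was called under every alternative run and was largest, at 2.08, with the processed signals.

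*Sprr1a* was lower at both times by limma, though not under every alternative. At 4 weeks the signal was 3436, 3152, 2042 and 3083 in DEP tissue and 4293, 4198, 2930 and 4192 in control tissue. Replicate 3 was low in both channels, so the groups overlapped, yet DEP was below control within each of the 4 arrays. The log2 ratio was -0.42 ± 0.08 (SD, n = 4 arrays), or 1.34-fold lower (limma, adjusted p = 0.00126). At 8 weeks DEP tissue gave 760, 742 and 611 and control tissue 874, 924 and 849, with no overlap, and the log2 ratio was -0.33 ± 0.14 (SD, n = 3 arrays; limma, adjusted p = 0.00732). The ratios of the 2 times differed by 0.09 (SE 0.09, adjusted p = 0.454), a difference whose sign turned to -0.11 with median centring.

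*Sprr3*, a small proline-rich gene of internal squamous epithelia such as that of the mouth and oesophagus, was close to background. At 4 weeks its signal was 77.3 to 100.1 in DEP tissue and 102 to 137 in control tissue, with 1 of 4 DEP and 2 of 4 control channels well above background. The log2 ratio was -0.39 ± 0.06 (SD, n = 4 arrays; limma, adjusted p = 0.00292), and since most channels were not well above background its size is uncertain, with -0.94 to -0.31 over the alternatives. At 8 weeks no DEP channel was well above background. Control tissue was 1.22-fold higher (log2 ratio -0.28, limma, adjusted p = 0.0211), a change whose size is uncertain for the same reason. The 8-week call was lost without 8-week replicate 2 (log2 ratio -0.26, adjusted p = 0.115) or 3 (-0.20, adjusted p = 0.109), with median centring and with the background model fitted on all spots, and its adjusted p ran from 0.00676 to 0.243 over the alternatives. With the processed signals the 8-week log2 ratio was -0.98.

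Loricrin and involucrin, the envelope's larger building blocks, were lower at 4 weeks and were not called at 8 weeks. The *Lor* signal at 4 weeks was 776, 973, 869 and 886 in DEP tissue and 1629, 1637, 1382 and 1653 in control tissue, with a wide gap between the groups. The log2 ratio was -0.85 ± 0.18 (SD, n = 4 arrays), or 1.8-fold lower (limma, adjusted p = 0.000148). At 8 weeks DEP tissue gave 1080, 1075 and 977 and control tissue 1109, 1232 and 1184, which came close to each other, and the log2 ratio was -0.17 ± 0.12 (SD, n = 3 arrays; limma, adjusted p = 0.16). With median centring it was -0.50 and called (adjusted p = 0.00773, 0.00773 to 0.463 over the alternatives). The ratio was higher at 8 than at 4 weeks by 0.68 (SE 0.11, adjusted p = 0.00412).

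The *Ivl* signal at 4 weeks was 120, 77.6, 88.0 and 80.9 in DEP tissue and 148, 137, 142 and 124 in control tissue. Replicate 1 had the brightest DEP channel and the log2 ratio nearest to 0, and the groups did not overlap. The log2 ratios ran from -0.82 to -0.31 with a mean of -0.61 ± 0.22 (SD, n = 4 arrays; limma, adjusted p = 0.00116). Only 2 of 4 DEP and 3 of 4 control channels were well above background, so the size of this change is uncertain. Over the alternatives the mean ran from -1.33, with the processed signals, to -0.42. At 8 weeks no DEP channel and 1 of 3 control channels were well above background, and the log2 ratio of -0.13 was not called (limma, adjusted p = 0.332). The second *Ivl* probe was well above background on no array and was not tested, with mean log2 ratios of -0.28 at 4 and -0.10 at 8 weeks. The *Ivl* ratio was higher at 8 than at 4 weeks by 0.48 (SE 0.12, adjusted p = 0.0237), a call lost without 4-week replicate 3 or 4 or 8-week replicate 1 or 2 (0.45 to 0.48, adjusted p 0.0501 to 0.0877). It was also lost with the background model fitted on all spots (0.30, adjusted p = 0.198) and was 1.08 with the processed signals.

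*Tgm3*, the epidermal transglutaminase that cross-links these proteins, was the exception to the lower levels at both times on its brighter probe. The brighter probe, A_55_P2163493, gave 1511, 1747, 1444 and 1905 in DEP tissue at 4 weeks and 1034, 1188, 917 and 1215 in control tissue. DEP channels were the higher throughout, and the log2 ratio was 0.60 ± 0.06 (SD, n = 4 arrays), or 1.52-fold higher (limma, adjusted p = 8.86e-05). At 8 weeks the same probe gave 1937, 1891 and 1774 in DEP tissue and 973, 1014 and 993 in control tissue, a log2 ratio of 0.91 ± 0.08 (SD, n = 3 arrays), or 1.88-fold higher (limma, adjusted p = 1.65e-05). The ratio was higher at 8 weeks by 0.31 (SE 0.07, adjusted p = 0.0161). That call was lost without 8-week replicate 2 (0.31, adjusted p = 0.0579) and with median centring (0.09, adjusted p = 0.499).

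The dimmer *Tgm3* probe, A_51_P495560, is assigned to the same transcript and disagreed at 4 weeks. It was close to background there, with 3 of 4 DEP and 2 of 4 control channels well above it. It gave 81.5, 90.1, 95.8 and 90.4 in DEP tissue and 116, 121, 129 and 129 in control tissue, so DEP was lower on every array. The log2 ratio was -0.47 ± 0.05 (SD, n = 4 arrays; limma, adjusted p = 0.00143), and at 8 weeks it was 0.05 ± 0.20 (SD, n = 3 arrays; adjusted p = 0.662). The mean of both probes was 0.07 at 4 weeks (adjusted p = 0.337), so the direction for *Tgm3* at 4 weeks depends on the probe, and why the probes differ was not tested.

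**Figure D2:**
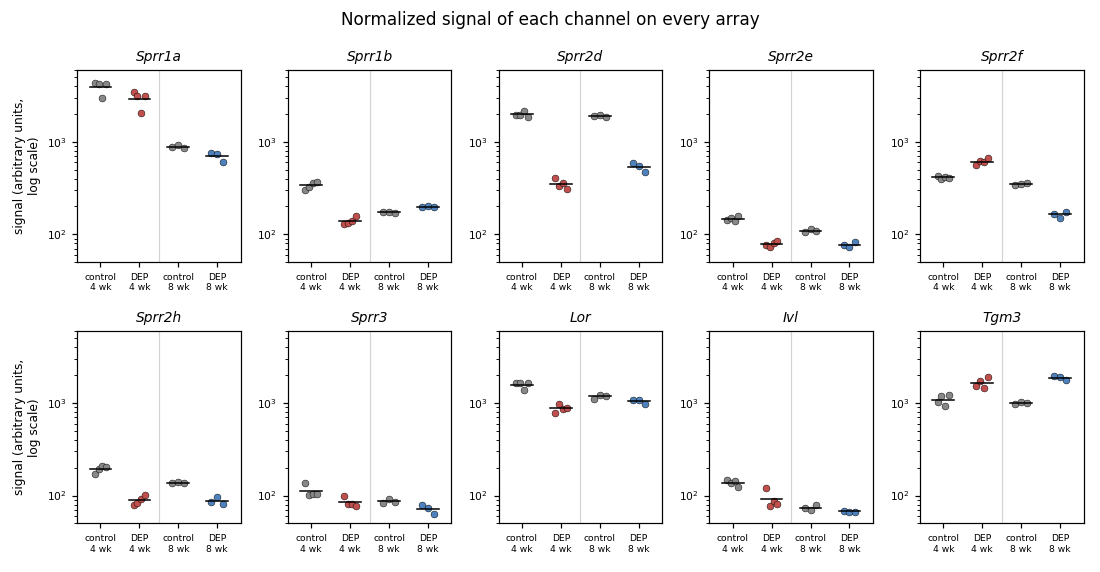
Normalized signal (y axis, log scale, arbitrary units, including the constant of 50) of the control and DEP channels on every array for each gene's brightest tested probe, 4 weeks left and 8 weeks right of the grey line, with group means as black lines. The control signal of *Sprr2d* lies between 1859 and 2146 on all arrays, while that of *Sprr1a* is 2930 to 4293 at 4 weeks and 849 to 924 at 8 weeks.

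Control tissue differed between the times as well. In a model of both channels, 8 members were lower in control tissue on the 8-week than on the 4-week arrays and none higher, against 30.3% of all genes called, 12.1% lower and 18.1% higher. The median difference was -0.42 over the members and -0.01 over all genes. *Sprr1a* differed most, by -2.13 (SE 0.15), or 4.38-fold lower at 8 weeks (limma, adjusted p = 4.89e-07). *Sprr1b* was lower by 1.94-fold (log2 difference -0.96, adjusted p = 8.27e-07) and *Ivl* by 1.87-fold (-0.90, adjusted p = 0.000117), with -2.52 for *Ivl* from the processed signals of the control channel alone. *Sprr2h* (-0.50), *Sprr2e* (-0.43), *Lor* (-0.42), *Sprr3* (-0.34) and *Sprr2f* (-0.23) had adjusted p-values of 0.00077 to 0.0377. *Sprr2d* (-0.05, adjusted p = 0.734) and *Tgm3* (-0.12, adjusted p = 0.372) were not called. The *Sprr2f* call was lost with quantile normalization (adjusted p = 0.081) and without 4-week replicate 2, 3 or 4 or 8-week replicate 1 or 2 (-0.24 to -0.22, adjusted p 0.0508 to 0.124). That of *Sprr3* was lost with quantile normalization (adjusted p = 0.0605), without any array but 4-week replicate 3 (-0.38 to -0.23, adjusted p 0.0503 to 0.0946) and from the processed signals of the control channel alone (-0.54, adjusted p = 0.32). With the background model fitted on all spots the calls of *Sprr2h* (adjusted p = 0.143), *Sprr2e* (0.0994), *Sprr3* (0.108) and *Sprr2f* (0.206) were lost. *Lor* was not called under every alternative either, with a highest adjusted p of 0.0565. Marker genes differed in the same comparison of control tissue. All 5 enamel organ markers were higher at 8 weeks, as were 5 of 6 olfactory neuron markers (median log2 difference 0.60), while 3 of 7 squamous markers were lower and none higher (median -0.42). Their part in the members' differences was not tested, and age, slide and hybridization cannot be told apart here.

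The ratios followed no single course along the chromosome. From *Lor* to *Ivl* the RefSeq annotation lists 25 genes, 18 of them protein coding, and 13 had a tested probe, 4 of which are not members. *Prr9* and *Lelp1*, other genes for proline-rich proteins next to *Lor*, had log2 ratios of 0.00 (adjusted p = 0.965) and 0.23 (adjusted p = 0.0254) at 4 weeks and 0.69 (adjusted p = 0.000527) and 0.42 (adjusted p = 0.00382) at 8 weeks. *Sprr2a2* had -0.07 (adjusted p = 0.339) at 4 and 0.21 (adjusted p = 0.0352) at 8 weeks. The *Lelp1* call at 4 weeks was lost with the background model fitted on all spots (adjusted p = 0.14). The *Sprr2a2* call at 8 weeks was lost with median centring (adjusted p = 0.226) and the processed signals (adjusted p = 0.0594). *Sprr2g*, which lies between *Sprr2f* and *Sprr2h* and is annotated as a transcribed pseudogene, was lower at both times, at -0.74 (adjusted p = 7.48e-05) and -0.94 (adjusted p = 3.63e-05), and at -2.43 and -3.52 with the processed signals. *Sprr2f* was thus higher at 4 weeks while its tested neighbours on both sides, *Sprr2e* and *Sprr2g*, were lower. Neither neighbour was well above background in DEP tissue on any array, so the sizes of their changes are uncertain. Both passed the filter through control channels alone, for *Sprr2g* 3 of 4 at 4 weeks and 3 of 3 at 8 weeks. The *Sprr2* genes belong to 1 gene family, and how far a probe of one also binds transcripts of another was not tested.

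**Figure D3:**
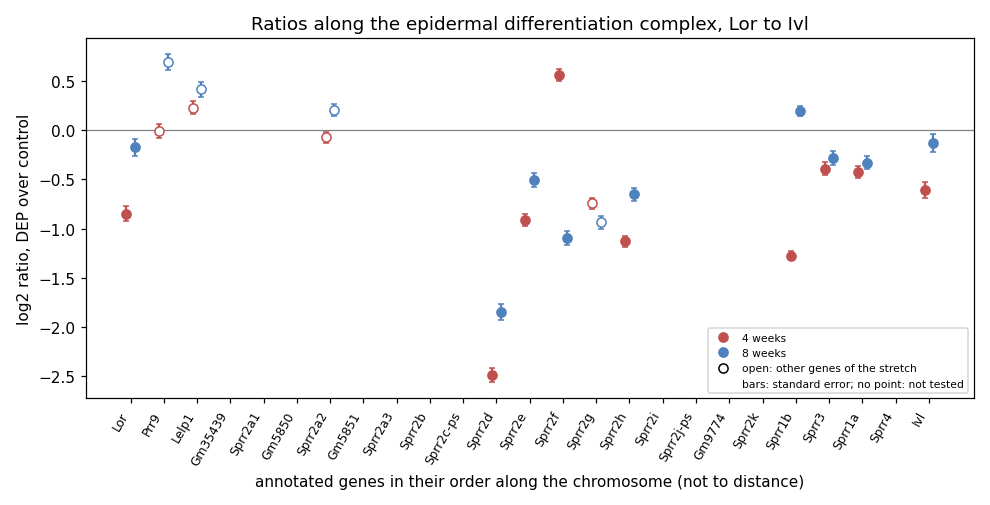
Log2 ratio of DEP over control with its standard error (y axis) at 4 weeks (red) and 8 weeks (blue) for the 13 tested genes among 25 annotated from *Lor* to *Ivl*, in chromosome order (x axis, not to distance). Filled points are members and open points other genes, and *Sprr2f* at 0.56 stands between *Sprr2e* at -0.91 and *Sprr2g* at -0.74 at 4 weeks. No DEP channel of *Sprr2e* or *Sprr2g* was well above background.

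Other genes of the cornified layer moved partly with the members at 4 weeks and partly against them at 8 weeks. Of 28 other genes of the epidermal differentiation complex tested, 13 were lower and 3 higher at 4 weeks, and 6 lower and 12 higher at 8 weeks, with median log2 ratios of -0.34 and 0.22. Over all genes 16.5% were lower and 21.6% higher at 4 weeks, and 17% and 20.4% at 8 weeks. The same shares apply to the list counts below. *Crct1*, a cysteine-rich C-terminal protein, was lower at both times, at -1.49 (adjusted p = 2.74e-05) and -0.68 (adjusted p = 0.00218). *Tchh*, trichohyalin of the hair root sheath, went from -0.44 (adjusted p = 0.000851) to 1.65 (adjusted p = 2.72e-06). The late cornified envelope gene *Lce1d* went from -0.65 (adjusted p = 0.000626) to 0.83 (adjusted p = 0.000336), whereas *Lce3a* was lower at both times, at -0.59 (adjusted p = 0.000138) and -0.82 (adjusted p = 4.35e-05). With the processed signals *Tchh* had 2.81 and *Lce3a* -1.67 at 8 weeks.

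Among the 6 other transglutaminases tested, 2 were lower and 2 higher at 4 weeks, and 1 lower and 2 higher at 8 weeks. *Tgm1*, the membrane-bound enzyme of keratinocytes, was lower at both times, at -0.64 (adjusted p = 0.000855) and -0.43 (adjusted p = 0.00922), opposite to the brighter *Tgm3* probe, and had -1.30 at 4 weeks with the processed signals. *Tgm5* was higher at both, at 0.23 (adjusted p = 0.0168) and 0.54 (adjusted p = 0.00067). The widely expressed *Tgm2* was higher as well, at 0.20 (adjusted p = 0.013) and 0.38 (adjusted p = 0.00124). Both 4-week calls were lost with the background model fitted on all spots (*Tgm5* adjusted p = 0.0587, *Tgm2* 0.0567) and with median centring (*Tgm5* 0.0959, *Tgm2* 0.37), which also ended the *Tgm2* call at 8 weeks (0.05, adjusted p = 0.616).

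Of 23 other envelope and cell junction proteins, 11 were lower and 4 higher at 4 weeks, and 3 lower and 10 higher at 8 weeks. The 8-week majority depended on the scaling, since median centring gave 5 lower and 4 higher. Cornifelin (*Cnfn*), an envelope component, was lower at both times, at -1.13 (adjusted p = 2.53e-05) and -1.34 (adjusted p = 1.58e-05), as was the skin protease *Asprv1*, at -0.76 (adjusted p = 0.00041) and -0.66 (adjusted p = 0.00151). *Krtdap*, the keratinocyte differentiation-associated protein, went from -1.10 (adjusted p = 7.95e-06) to 0.36 (adjusted p = 0.00275), the latter not called with median centring (0.06, adjusted p = 0.55). Cystatin M/E (*Cst6*), an inhibitor of the proteases that control transglutaminase activity, was at 0.02 (adjusted p = 0.774) at 4 weeks and was higher in DEP tissue at 8 weeks, at 1.40 (adjusted p = 3.85e-06).

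The 16 keratins of stratified squamous epithelium counted 11 lower and 2 higher at 4 weeks, and 6 lower and 6 higher at 8 weeks. *Krt13* and *Krt4*, the keratin pair of internal squamous epithelia, were lower at 4 weeks by log2 ratios of -1.27 (adjusted p = 1.35e-05) and -1.19 (adjusted p = 5.86e-05). At 8 weeks *Krt13* had -0.21 (adjusted p = 0.075) and *Krt4* -0.51 (adjusted p = 0.00638), the latter not called with the background model fitted on all spots (adjusted p = 0.0945). *Krt16* and *Krt6b*, keratins of stressed or fast-growing epithelium, were lower at both times, *Krt16* at -1.19 and -0.75 (adjusted p = 7.44e-06 and 0.0001) and *Krt6b* at -0.91 and -1.32 (adjusted p = 0.000176 and 4.38e-05). *Krt10*, a keratin of the cornifying layers, went from -0.39 (adjusted p = 0.00433) to 0.84 (adjusted p = 0.000212), and *Krt14*, a basal keratin, from -0.54 (adjusted p = 9.87e-05) to 0.73 (adjusted p = 3.46e-05). Other basal keratins were not lower at 4 weeks. *Krt15* was higher at both times, at 1.08 (adjusted p = 1.08e-05) and 0.46 (adjusted p = 0.00123). *Krt5* was called at neither time, at 0.16 (adjusted p = 0.122) and 0.05 (adjusted p = 0.68).

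Of 21 transcription factors of squamous differentiation, 5 were lower and 6 higher at 4 weeks, and 3 lower and 6 higher at 8 weeks, where median centring gave 7 lower and 2 higher. Over all genes 16.5% were lower and 21.6% higher at 4 weeks, and 17% and 20.4% at 8 weeks. The largest called changes of the list at 8 weeks were those of *Notch1*, at 1.01 (adjusted p = 0.00575), *Cebpa*, at -1.01 (adjusted p = 8.81e-05), and *Klf4*, at 0.63 (adjusted p = 0.00886). *Fos*, a subunit of AP-1, went from -0.67 (adjusted p = 0.000267) to 0.28 (adjusted p = 0.0234), the latter not called with median centring (adjusted p = 0.0831) or the background model fitted on all spots (adjusted p = 0.169). Another AP-1 subunit, *Fosl2*, went from -0.29 (adjusted p = 0.00377) to 0.52 (adjusted p = 0.000415), whereas *Jund* went from 0.23 (adjusted p = 0.0895) to -0.44 (adjusted p = 0.0152). *Trp63*, the regulator of stratified epithelium, was higher at both times, at 0.68 (adjusted p = 9.58e-05) and 0.36 (adjusted p = 0.00335), the 8-week call being lost with median centring (0.05, adjusted p = 0.718).

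**Figure D4:**
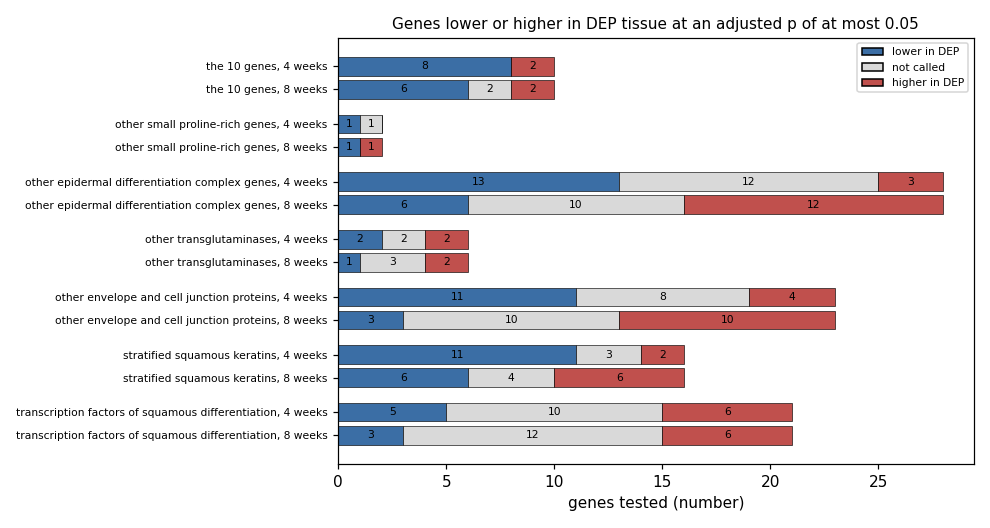
Number of tested genes (x axis) in each list that were lower (blue), higher (red) or not called (grey) in DEP tissue at an adjusted p of at most 0.05, at 4 and 8 weeks. The lower genes outnumber the higher ones among the 10 genes at both times, and among the other epidermal differentiation complex genes at 4 weeks alone.

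Marker genes of several cell types also differed between DEP and control tissue. Of all genes tested, 38.1% were called at 4 and 37.3% at 8 weeks, so a count near those shares does not set a list apart. As for the tissue label, all 6 olfactory neuron markers passed the filter, with summed signals of 75067 to 153833 over all channels and arrays. Of 7 squamous markers, 6 were lower and none higher at 4 weeks, with a summed signal of 4911 to 5282 in DEP and 7701 to 8443 in control tissue. At 8 weeks 2 were lower and 4 higher, with sums of 7152 to 9064 and 6572 to 7355, and median centring gave 3 lower and 2 higher. None of the 7 is a member, but 5 keratins and *Krtdap* among them also stand in the lists above. Their part in the members' changes was not tested.

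Enamel organ markers of the tooth, an organ whose roots lie close to the nasal floor, were lower at 4 and higher at 8 weeks. At 4 weeks 4 of 5 were lower and none higher, with sums of 4905 to 5560 in DEP and 15123 to 16379 in control tissue, and at 8 weeks all 5 were higher, with sums of 70954 to 94064 and 41566 to 42692. Neutrophil markers, which include the genes of the epidermal differentiation complex *S100a8* and *S100a9*, were lower for 4 and higher for 1 of 6 at both times. Their summed signals overlapped between DEP and control tissue, at 14624 to 18346 and 17692 to 19017 at 4 weeks. At 8 weeks the sums were 14682 to 17990 and 17097 to 17944. *S100a9* was at -1.71 (adjusted p = 2.3e-06) and -1.80 (adjusted p = 2.4e-06). Olfactory neuron markers ran the other way, with 4 of 6 higher at 4 weeks and 5 lower at 8 weeks. Of 4 basal markers, 1 was lower and 2 higher at 4 weeks and 3 were higher at 8 weeks. Olfactory support cell markers counted 4 of 5 higher at 4 weeks, and 4 lower and 1 higher at 8 weeks, and B cell markers 3 of 4 lower at 4 weeks and 4 higher at 8 weeks. Ciliated cell markers counted 3 of 5 higher at 4 and 2 at 8 weeks with none lower, but median centring gave 2 lower and 1 higher at 8 weeks, and bone and cartilage markers 2 of 6 lower at 4 and 2 higher at 8 weeks. Secretory markers counted 1 of 6 lower and 2 higher at 4 weeks and 1 lower and 3 higher at 8 weeks, where median centring left 1 and the processed signals none higher, and muscle markers 2 of 5 lower and 1 higher and then 3 lower and 1 higher. The part of these shifts in the members' ratios was not tested.

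The genes whose ratios followed the mean of the 10 members most closely over the 7 arrays were *Slc34a1*, *Coro1a*, *Matk*, *Gadd45b*, *Glyr1*, *Klk5*, *Id1* and 3 probes with no gene symbol in the table, with Pearson's r from 0.991 to 0.996. The arrays fall into 2 exposure times on separate slides, so such an r reflects mainly the step between them, and 1272 of 20373 genes compared had an r above 0.9. *Klk5*, a kallikrein protease of the skin, stands in the envelope list and went from -0.04 (adjusted p = 0.608) to 0.61 (adjusted p = 0.000241), or 1.58 at 8 weeks with the processed signals.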

How the data were processed

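Per the file headers, the authors scanned 7 Agilent Mouse 4x44K V2 arrays and extracted them with Feature Extraction 10.10.1.1. The deposited median signals are intensity values of spots and local backgrounds, and the deposited processed signals are intensity values after the software's background and dye correction. The deposited log10 ratio of the processed channels was used only to check the direction. The study's GeneSpring normalization was not repeated.

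Signals were background-corrected by normexp (offset 50, fitted without spots marked as background outliers), normalized by loess within arrays, and averaged over repeat spots. Spots marked as not uniform were left out. Between 16985 and 26927 probes a channel were well above background, which limits the precision of dim members, and no spot was saturated. Ratios were fitted with limma 3.58.1 in R 4.3.3, with 1 mean per exposure time and all 7 arrays sharing the spread. Control tissue was compared between times by limma's separate-channel model after Aquantile normalization, in which marked spots were kept. Promoters were aligned with Biopython.

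RefSeq accessions (GRCm38.p6) named 28330 of 39429 probes, and other probes kept the file's identifier. The genes and lists were chosen with earlier results of these data known. From each list at most 5 genes were eligible for naming at each time, those with the largest log2 ratio in size among genes called with 1 sign on every array. The 10 genes with the highest correlation with the members' mean ratio and the tested genes between *Lor* and *Ivl* were also named. List genes without a tested probe include *Flg*, *Flg2*, *Sprr2b*, *Sprr2i*, *Sprr2k* and *Sprr4*. Scripts were tested on simulated data. Alternatives covered background, normalization, filter, probe choice, test, replicate block and leaving out each array.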

Additional observations from a re-analysis of the deposited data

Results flagged for a closer look

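Replicate 1 of the 4-week arrays had a *Sprr2d* log2 ratio of -2.26, and it stood apart from the other 3 arrays by Dixon's test. It was 1 of 12 probes so tested at 4 weeks, of which chance flags about 1 in 20.

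The effect of DEPs differed between the exposure times, by the test of the 8-week minus the 4-week log2 ratio (limma, adjusted p of at most 0.05), for 8 members. The difference was 1.47 for *Sprr1b* and -1.66 for *Sprr2f*, which both changed sign. It was 0.64 for *Sprr2d*, 0.48 for *Sprr2h* and 0.41 for *Sprr2e*. It was 0.68 for *Lor*, 0.48 for *Ivl* and 0.31 for *Tgm3*. Exposure time and slide cannot be told apart in any of them.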

How the results depend on the processing

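Of 634 alternative values of single members, 573 kept their direction and their side of the threshold, 58 kept the direction and lost the call, 1 gained it, and 2 turned, both in uncalled differences between the times (*Sprr3*, -0.039 with the processed signals, and *Sprr1a*, -0.11 with median centring). With the background model fitted on all spots the calls fell to 5 at 8 weeks, 4 for the difference between times and 4 in control tissue. With a filter for both channels on all 7 arrays 6 members were tested, and 6, 5, 5 and 4 were called at 4 weeks, at 8 weeks, between times and in control tissue, because fewer members were tested. Leaving out 1 array gave 10 to 10 calls at 4 weeks, 6 to 8 at 8 weeks, 6 to 8 between times and 6 to 7 in control tissue. The methods' t-test passed the study's thresholds for the 3 members at 4 weeks and the 2 at 8 weeks. After adjustment it called 8 (unpaired) and 9 (paired) at 4 weeks, 6 (unpaired) and 0 (paired) at 8 weeks, where 6 had an unadjusted p under 0.05 and limma called 8. Unpaired it lost *Sprr1a* (adjusted p = 0.223 at 4 and 0.105 at 8 weeks) and *Sprr3* (0.0929 and 0.136), and paired it lost *Ivl* at 4 weeks (0.0517). Equal replicate numbers did not deviate together (correlations -0.01, -0.01 and 0.02), so the numbers do not pair the arrays. With the replicate block 5 members were called between times and 5 in control tissue. Other causes were not tested. The share of higher genes among all calls was 56.7% at 4 and 54.6% at 8 weeks, 42.3% and 26.9% with median centring, which shifted the median log2 ratio at 8 weeks from 0.01 to -0.11, and 67.9% and 51% with the processed signals. *Ly6d*, a squamous marker, changed sign at 8 weeks with median centring (0.24 to -0.08). Signal over background limits *Sprr2e*, *Sprr2h*, *Sprr3*, *Ivl* and the dimmer *Tgm3* probe.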
